A study of Mus musculus with 6 samples.

Results

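The 10 genes described here encode products that Sertoli cells secrete or present to germ cells: Inha, Inhbb, Amh, Clu, Shbg, Defb19, Trf, Gdnf, Kitl and Cst12. They were taken by gene name from a table of 54532 mouse genes. RNA was sequenced in 3 libraries of a conditional knockout and in 3 control libraries whose genotype is given as Cre. Both groups are labelled as STRA8+ cells from testis and as germ cells. STRA8 marks germ cells that enter meiosis under retinoic acid. BCAS2 and hnRNPH1 appear in the study's title, but the labels do not name the deleted gene, the promoter that drives Cre, the strain, the age or whether the libraries came from separate animals. A p-value here therefore rests on the variation among libraries alone, and that variation may be technical.

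Sertoli cells are the somatic cells of the seminiferous tubule that hold and feed the germ cells. They secrete hormones (inhibin B and anti-Müllerian hormone), carriers of lipid, iron and androgen, and growth factors that keep stem cells dividing or let differentiating spermatogonia survive. Germ cells carry the receptors for several of these ligands, such as GFRA1 with RET for GDNF and KIT for KIT ligand. A library of sorted germ cells can hold Sertoli cell RNA, and in bulk RNA fewer cells of a type and less RNA per cell cannot be told apart.

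The upstream sequences of 3 members, Shbg, Inhbb and Cst12, are shown to give the DNA beside genes that moved together. RefSeq (GRCm38.p6) entries were matched by symbol for 6 of the 10 members, and those of these 3 began within 10 bases of the deposited gene start. Each line gives the 250 bases before the RefSeq start, 5′ to 3′ on the strand of the gene, with motif matches in capitals.
Shbg, chr11:69617906-69618155, minus strand: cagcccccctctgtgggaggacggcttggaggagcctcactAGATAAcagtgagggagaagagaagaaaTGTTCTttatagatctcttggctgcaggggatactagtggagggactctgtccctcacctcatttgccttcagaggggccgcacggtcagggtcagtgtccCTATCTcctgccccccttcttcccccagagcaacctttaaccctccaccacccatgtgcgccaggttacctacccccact
Inhbb, chr1:119422249-119422498, minus strand: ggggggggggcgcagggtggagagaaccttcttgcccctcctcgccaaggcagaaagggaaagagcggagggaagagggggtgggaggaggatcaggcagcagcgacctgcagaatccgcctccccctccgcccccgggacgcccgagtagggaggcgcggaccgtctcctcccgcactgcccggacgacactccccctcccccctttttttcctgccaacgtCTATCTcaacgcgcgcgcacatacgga
Cst12, chr2:148789115-148789364, plus strand: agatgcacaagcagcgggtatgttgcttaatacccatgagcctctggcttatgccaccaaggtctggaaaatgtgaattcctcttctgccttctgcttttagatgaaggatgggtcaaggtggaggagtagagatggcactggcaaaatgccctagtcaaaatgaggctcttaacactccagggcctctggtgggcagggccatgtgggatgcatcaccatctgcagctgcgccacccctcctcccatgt
Both strands were searched for 4 forms of the motif of GATA factors, among them the Sertoli cell factors GATA1 and GATA4. The first form was AGATAA, the second form was TGATAA, the third form was AGATAG and the last form was TGATAG. The other motifs searched were AACAAT for SOX factors, AAGGTCA for NR5A1, TGACGTCA or the shorter TGCGTCA for cAMP response elements, AGAACA for a half-site of the androgen receptor, and CCAATC for NFY. Shbg held AGATAA 209 to 204 bases before its start, the reverse complement of AGAACA 181 to 176 bases before it, and the reverse complement of AGATAG 80 to 75 bases before it. Inhbb held the reverse complement of AGATAG 27 to 22 bases before its start. Cst12 held none of these letters. The matches shown do not overlap each other. Of all 32851 mouse promoter windows of the same length, AGATAA occurred in 9.99%, AGATAG in 7.71% and AGAACA in 16.1%. A match is a description of letters and was not linked to any value here.

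Levels are deposited FPKM, fragments per kilobase of gene and per 1000000, and are printed for each library in the order of the replicate numbers. The libraries held 15204127, 14770320 and 14806917 reads in the knockout and 14532453, 16963019 and 16410857 in the controls. The divisor behind FPKM was not the total read count: it was 1.42, 1.37 and 1.40 times the total in the knockout and 0.691, 0.774 and 0.751 times in the controls, which places the knockout lower against the controls than a share of reads would. Bcas2 had 4.78, 4.38 and 5.40 FPKM in the knockout and 19.8, 19.3 and 20.5 FPKM in the controls. Stra8, by whose product the cells are described, had 125, 137 and 136 FPKM in the knockout and 11.5, 22.6 and 17.0 FPKM in the controls. Of 22 Sertoli cell marker genes outside the 10 members, 20 averaged at least 1 FPKM over the 6 libraries. Their geometric mean level was 23.5, 17.3 and 14.7 FPKM in the knockout and 4.22, 6.34 and 7.11 FPKM in the controls. RNA of Sertoli cell genes was thus present in libraries labelled as germ cells, in both groups. For each replicate pair the counts differed beyond sampling noise, so each library counts as 1 sample.

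All 8 members that reached a mean of 1 FPKM over the 6 libraries were higher in the knockout, and their groups did not overlap. Amh reached that mean through the knockout alone, since its control mean was 0.94 FPKM. Its place among the 8 is therefore not independent of its direction. The 8 were called at an adjusted p under 0.05 by limma across all genes, against 36.2% of the 16791 genes tested that were called higher and 50.4% called lower. Groups that do not overlap were seen for 36.9% of the genes tested with the knockout higher and for 51.1% with it lower. The median log2 fold change of the 8 was 1.78, where the median over all genes tested was -0.41. The other 2 members, Trf and Gdnf, stayed under the filter. Log2 fold changes below are of log2(FPKM + 0.5), knockout over control, which understates the change of low genes. Their errors are moderated standard errors.

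Inhibin alpha and beta B and anti-Müllerian hormone, the hormones of the set, were each higher in the knockout. Inha (ENSMUSG00000032968, chr1:75507077-75510366, plus strand, mm10) encodes the subunit that makes a dimer an inhibin and not an activin. Inha had 149.9, 106 and 97.0 FPKM in the knockout and 19.7, 27.9 and 35.1 FPKM in the controls. Every knockout library was above every control library, by means of 118 ± 28.3 FPKM and 27.5 ± 7.71 FPKM (SD, n = 3 each). The log2 fold change was 2.09 ± 0.23, with an adjusted p of 5.6e-05 by limma. Inhbb (chr1:119415465-119422248, minus strand) encodes the beta B subunit, the partner of the alpha subunit in inhibin B. Inhbb had 13.6, 8.53 and 8.07 FPKM in the knockout, against 1.10, 3.27 and 3.93 FPKM in the controls. The groups were separate, and the control library with the lowest value stood well below the other two. The log2 fold change was 1.78 ± 0.38 with an adjusted p of 0.0026. Amh (chr10:80805243-80807648, plus strand), the hormone that makes Müllerian ducts regress and that is high in Sertoli cells before puberty, had 8.0, 4.68 and 3.35 FPKM in the knockout and 0.239, 1.37 and 1.22 FPKM in the controls. Control 1 rests on 4 reads, so its level is the least precise of the values above the filter. Knockout libraries were above all controls, with a log2 fold change of 2.05 ± 0.41 and an adjusted p of 0.0017. The ratio of Inha to Inhbb was 11, 12.4 and 12.0 in the knockout and 17.9, 8.53 and 8.92 in the controls, which overlap. This ratio was among 13 ratios of member and partner genes that were computed, a choice made after values were seen. The exact two-sided permutation test gave p = 1.0, where 3 against 3 libraries can reach no less than 0.10.

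**Figure D1:**
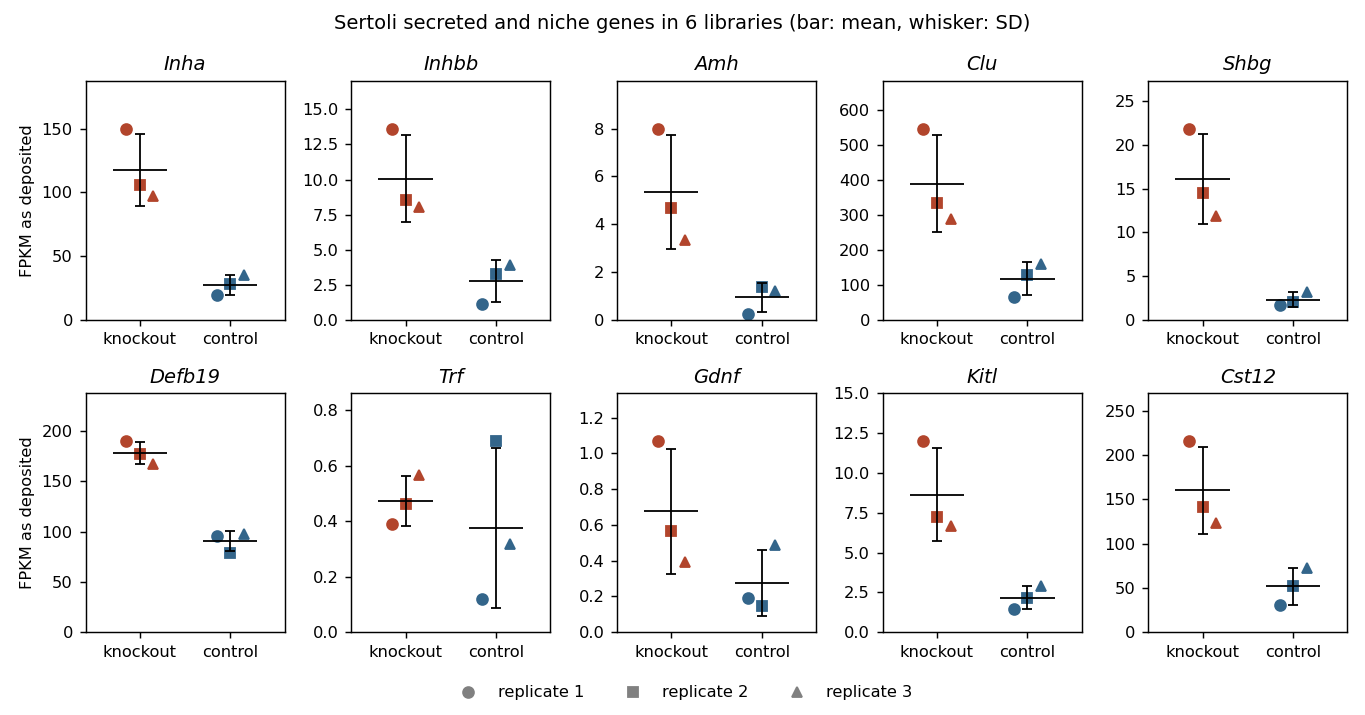
Deposited FPKM (y axes, 1 panel a gene, each from 0) of the 10 members in 3 knockout libraries and 3 control libraries, with points for libraries, a bar for the group mean and whiskers for the SD. For 8 genes the knockout points sit above all control points, as for Clu with 289 to 547 FPKM in the knockout and 65.8 to 161 FPKM in the controls, while the groups of Trf and Gdnf overlap.

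Of the carrier proteins, Clu and Shbg were higher in the knockout and Trf was too low to test. Clu (chr14:65968483-65981547, plus strand) encodes clusterin, an abundant secreted chaperone that binds lipids and coats sperm. Clu had 547, 335 and 289 FPKM in the knockout and 65.8, 127 and 161 FPKM in the controls. It had the highest mean level of the 10 members in each group, 390.4 ± 138 FPKM in the knockout and 118 ± 48.1 FPKM in the controls, with a log2 fold change of 1.76 ± 0.35 and an adjusted p of 0.0017. Shbg (chr11:69614804-69617905, minus strand), whose product is called androgen-binding protein in the testis, showed the largest difference of the members. Shbg had 21.8, 14.5 and 11.9 FPKM in the knockout and 1.65, 2.02 and 3.23 FPKM in the controls. The lowest knockout value was above the highest control value, and the log2 fold change was 2.56 ± 0.27 with an adjusted p of 3.6e-05. Trf (chr9:103204001-103230444, minus strand), transferrin, carries iron to germ cells. Trf was listed at 0.390, 0.461 and 0.567 FPKM in the knockout and 0.120, 0.688 and 0.318 FPKM in the controls, from 28, 31 and 39 reads and from 4, 30 and 13 reads. The groups overlapped, and the exact permutation test gave p = 0.6. Gm20425, on the same strand, overlaps Trf and was the one annotated gene overlapping a member. Its levels of 0, 0 and 0 FPKM in the knockout and 0, 0.0251 and 0.107 FPKM in the controls were low against those of Trf, and how reads shared by both were counted is not known.

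The 2 niche ligands differed in how well they could be measured. Kitl (chr10:100015630-100100416, plus strand) encodes KIT ligand, also called stem cell factor, on which KIT-bearing differentiating spermatogonia depend. Kitl had 12.0, 7.22 and 6.70 FPKM in the knockout, against 1.45, 2.12 and 2.91 FPKM in the controls. The groups were separate, with a log2 fold change of 1.77 ± 0.27 and an adjusted p of 0.00035. Gdnf (chr15:7810846-7837575, plus strand) encodes glial cell line-derived neurotrophic factor, which maintains spermatogonial stem cells. Gdnf stood at 1.07, 0.565 and 0.394 FPKM in the knockout and 0.190, 0.145 and 0.486 FPKM in the controls, from 85, 42 and 30 reads and from 7, 7 and 22 reads. The third control overlapped the knockout, and the exact permutation test gave p = 0.2. With no filter the fit gave an adjusted p of 0.117 for Gdnf and 0.53 for Trf, so neither was called.

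The small secreted proteins both had high levels and unequal differences. Defb19 (chr2:152576086-152580312, minus strand), a beta-defensin that Sertoli cells express, had 190.0, 177 and 167 FPKM in the knockout and 95.8, 79.0 and 97.4 FPKM in the controls. Relative to the mean these are the narrowest groups of the set, with coefficients of variation of 6.35% in the knockout and 11.2% in the controls. The means were 178 ± 11.3 FPKM and 90.8 ± 10.2 FPKM (SD, n = 3 each), and the groups do not overlap. The log2 fold change was 0.97 ± 0.11, the smallest of the 8 called, with an adjusted p of 5.5e-05. Cst12 (chr2:148789361-148793546, plus strand), a cystatin-related secreted protein of the Sertoli cell, had 216, 141 and 124 FPKM in the knockout and 31.0, 52.1 and 72.4 FPKM in the controls. The groups were apart and the log2 fold change was 1.66 ± 0.32, with an adjusted p of 0.0014.

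Ranked by mean FPKM in the knockout the order was Clu, Defb19, Cst12, Inha, Shbg, Inhbb, Kitl, Amh, Gdnf and Trf. In the controls it was Clu, Defb19, Cst12, Inha, Inhbb, Shbg, Kitl, Amh, Trf and Gdnf. Neighbours in the knockout order overlapped in their libraries except at 3 steps, Clu over Defb19, Inha over Shbg and Amh over Gdnf. In the controls the steps without overlap were Defb19 over Cst12, Inha over Inhbb and Kitl over Amh. The ranges of the other neighbouring pairs overlapped, which does not compare the genes within a library. Within each library Cst12 was above Inha, with ratios of 1.28 to 1.44 in the knockout and 1.58 to 2.06 in the controls. Defb19 was below Cst12 in knockout 1 alone. The knockout mean was 1.96 times the control mean for Defb19 and 6.99 times for Shbg, with Inha at 4.27, Inhbb at 3.64, Amh at 5.68, Clu at 3.31, Kitl at 4.0 and Cst12 at 3.09 times. On FPKM rescaled so that each library sums to 1000000 the ratio was 4.48 for Defb19 and 15.8 for Shbg, and the other 6 lay between 6.97 and 12.6. All 8 were called higher under each other scaling tried, where the median over all genes moved by 0.83 to 1.12 on the log2 scale. Over all genes the scaling turned the balance of calls: 9109 were higher and 6084 lower on rescaled FPKM, against 6075 higher and 8462 lower as deposited.

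The libraries of a group were ordered alike by nearly all members. All 8 tested members were highest in knockout 1, a place held by 34.0% of all genes tested, and lowest in knockout 3, held by 27.3%. In the controls 7 of 8 were lowest in control 1, held by 35.0% of genes, and 7 of 8 were highest in control 3, held by 31.3%. Defb19 was the member that was lowest in control 2. The median coefficient of variation of the 8 was 31.2% in the knockout and 37.9% in the controls, against 12.6% and 14.2% for all genes tested and 26.6% and 31.4% for the other Sertoli markers. Counting alone would give Clu 0.596% in the knockout and 1.43% in the controls, and Inha 1.66% in the knockout and 4.54% in the controls. For Amh, with fewer reads, it would give 7.30% in the knockout and 22.6% in the controls, where the observed values were 44.8% and 65.1%. The level of the other Sertoli markers moved with the members, as the geometric means above show. Leaving out knockout 1 and control 1 together, an alternative chosen after seeing the data, gave 8 members higher with log2 fold changes from 0.97 for Defb19 to 2.16 for Shbg, and it lowered Inhbb to 1.10, Clu to 1.12, Cst12 to 1.10 and Amh to 1.32.

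**Figure D2:**
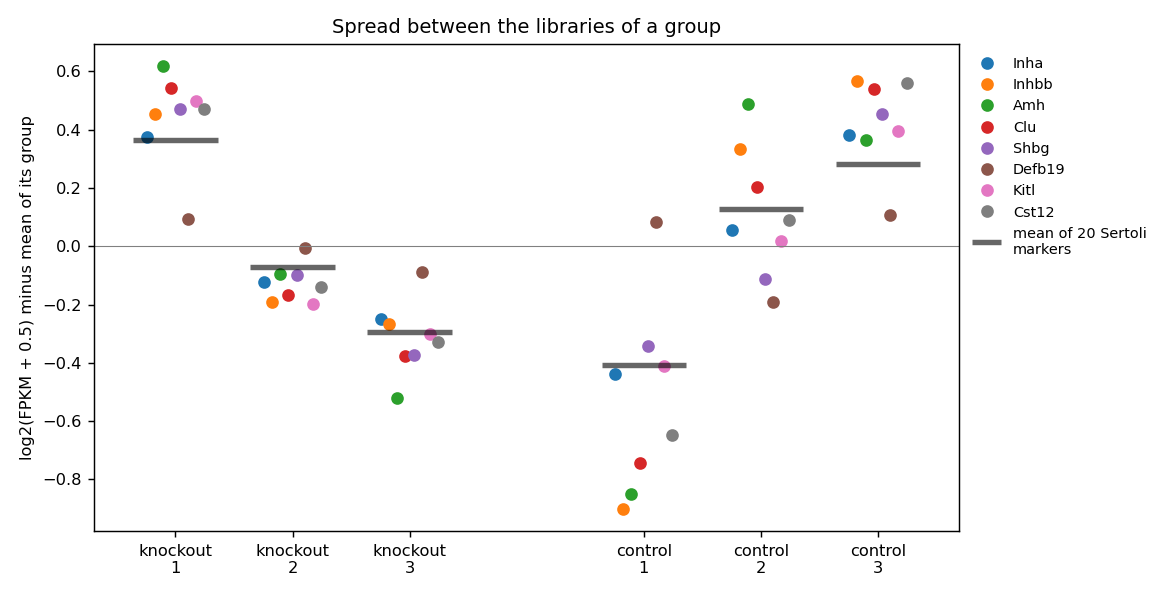
Deviation of each library from the mean of its group in log2(FPKM + 0.5), for the 8 tested members (coloured points) and the mean of 20 other Sertoli markers (black bars). Knockout libraries are left and control libraries right. Points of knockout 1 lie above 0 and those of knockout 3 below it, and 7 of the 8 points of control 1 lie below it.

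Since the members and the other Sertoli markers move together across libraries, each member was also set against those 20 markers in the same library. This centring takes out most of the library divisor, though not all of it for low genes such as Amh, since 0.5 is added to FPKM first. Of the members, 1 of 8 was called higher and 0 lower, against 1.62% of all genes called higher and 72.3% called lower. The median relative log2 fold change of the 8 was 0.20, where all genes had -1.99. Shbg was the member called, at 0.98 with a 95% interval of 0.30 to 1.66 and an adjusted p of 0.0068. Its adjusted p was 0.0775 with the replicate number as a block and 0.0683 without control replicate 2, and the call ends in both. The intervals of the other 7 contained 0: Inha was at 0.51 (-0.20 to 1.22), Amh at 0.48 (-0.25 to 1.20), and Defb19 at -0.60 (-1.33 to 0.12). Inhbb at 0.21, Kitl at 0.19, Clu at 0.18 and Cst12 at 0.08 were closer to the markers, and the interval of Cst12 ran from -0.64 to 0.80. A p that misses the threshold does not show that these genes match the markers. The moderated standard errors of the 8 ran only from 0.347 for Inhbb to 0.371 for Clu, since they borrow from the variance of all genes tested. These intervals are therefore not a measure of each member's own spread. In log2 relative to the markers, Inha had 2.64, 2.58 and 2.68 in the knockout and 2.10, 2.06 and 2.22 in the controls, which do not overlap. Its SD was 0.050 in the knockout and 0.088 in the controls (n = 3 each). The ratio of Shbg to Inha was 0.146, 0.137 and 0.123 in the knockout and 0.0841, 0.0724 and 0.0923 in the controls, again without overlap. The ratio of Defb19 to Inha was 1.27, 1.67 and 1.73 in the knockout and 4.88, 2.83 and 2.78 in the controls. For both ratios the exact permutation p was 0.10, the smallest that 3 against 3 allows, and 0.217 when adjusted over the 13 ratios.

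**Figure D3:**
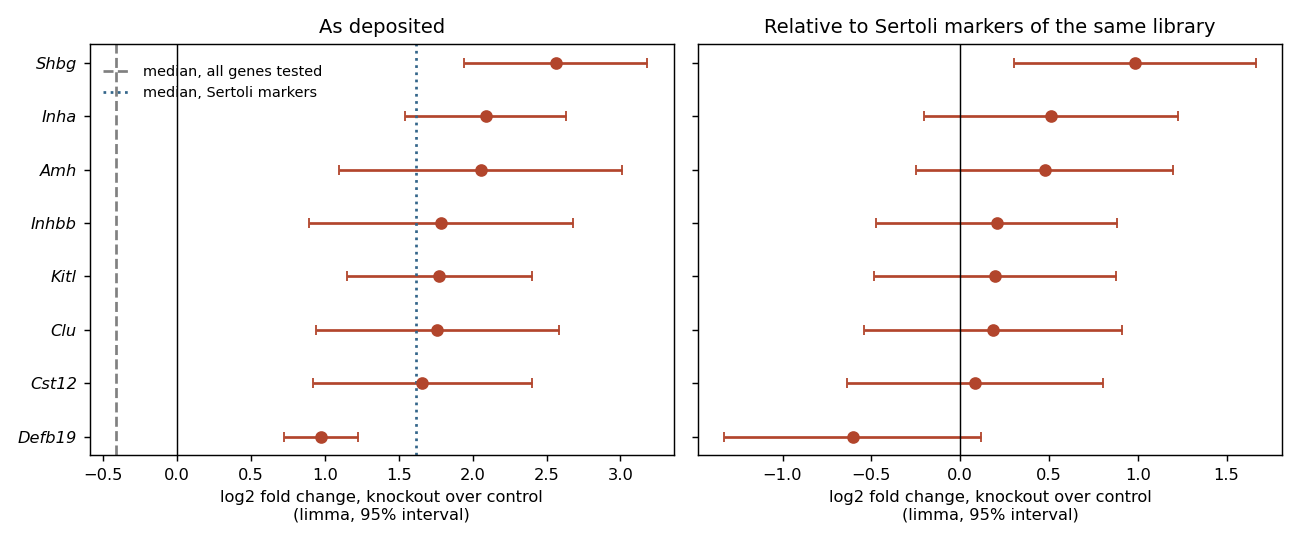
Log2 fold changes of the 8 tested members, knockout over control, with 95% intervals by limma, as deposited (left) and relative to Sertoli markers of the same library (right). On the left all 8 intervals lie above 0 and above the median of all genes, -0.41, and on the right Shbg alone lies above 0, at 0.98.

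The profile of the members over the 6 libraries was compared with those of other protein-coding genes by Euclidean distance of mean-centred log2(FPKM + 0.5). Among the nearest outside the members were Tmem184a at 0.191, Slc30a2 (a zinc transporter) at 0.204, Vim (vimentin, one of the Sertoli markers) at 0.212 and Daam2 at 0.217. Tmem184a had 39.7, 24.2 and 22.9 FPKM in the knockout and 4.74, 9.79 and 12.4 FPKM in the controls. The reference was the median profile of the tested members, so their own distances to it are not comparable with those of outside genes. Of the members, Inhbb, Kitl, Inha and Amh lay between Clu at 0.132 and Cst12 at 0.214, the nearest to that profile, and Shbg at 1.05 and Defb19 at 1.44, the farthest.

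Of 15 tested genes of the inhibin, activin and AMH pathway, 11 were called higher in the knockout and 2 lower, and 14 and 0 on rescaled FPKM. For this list and those below, all genes tested give the background: 36.2% were called higher and 50.4% lower. On rescaled FPKM it was 9109 higher and 6084 lower of 16791. Higher were the receptors Acvr2b (2.15 ± 0.21), Bmpr2 (2.07 ± 0.15), Bmpr1a (1.81 ± 0.12) and Amhr2, the receptor for AMH (1.23 ± 0.32), and the shared mediator Smad4 (1.32 ± 0.098), all log2 fold changes with their errors. Amhr2 had 151, 103 and 91.4 FPKM in the knockout and 29.0, 53.2 and 69.6 FPKM in the controls, a spread like that of the members. The co-receptor Tgfbr3 fell by 0.80 and Smad1 by 0.46 on the deposited scale, and both turn to 0.22 and 0.66 on rescaled FPKM, so their direction depends on the scaling. Inhba, the beta A subunit, stayed under the filter at 0.174, 0.0464 and 0.0378 FPKM in the knockout and 0.0468, 0.0238 and 0 FPKM in the controls. The ratio of Amh to Amhr2 was 0.0531, 0.0452 and 0.0367 in the knockout and 0.00822, 0.0257 and 0.0175 in the controls.

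Of 10 tested GDNF pathway genes, 4 were called higher and 5 lower, near the shares of all genes tested, 36.2% and 50.4%. On rescaled FPKM the count was 6 higher and 3 lower. The lower Gfra2, Artn, Ncam1 and Gfra1 averaged under 1 FPKM in the knockout and passed the filter through the controls alone. The higher Gfra3 and Pou3f1 averaged under 1 FPKM in the controls and passed it through the knockout alone. Gfra2, a receptor for neurturin, was at 0.209, 0 and 0.0682 FPKM in the knockout and 19.4, 15 and 14.9 FPKM in the controls. Artn (artemin, a relative of GDNF) and Ncam1 fell by 2.29 and 2.36. Gfra1, the GDNF receptor that marks stem cells, had 0.624, 0.830 and 0.794 FPKM in the knockout and 2.44, 1.97 and 1.72 FPKM in the controls, a log2 fold change of -1.02 ± 0.17. For Gfra1 limma gave 0.30 under quantile normalization (adjusted p 0.22), -0.23 on rescaled FPKM (0.29) and -0.37 on rescaled reads (0.048). Etv5, a target of GDNF signalling that Sertoli cells also use, was higher by 0.84 ± 0.26 with an adjusted p of 0.015. The ratio of Gdnf to Gfra1 was 1.71, 0.680 and 0.497 in the knockout and 0.0779, 0.0735 and 0.283 in the controls. That ratio rests on few Gdnf reads. Of the 13 ratios it was among those at the smallest permutation p of 0.10.

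KIT ligand pathway genes were called higher in 6 of 9 cases and lower in 1, and in 8 and 0 on rescaled FPKM. Over all genes tested, 36.2% were called higher and 50.4% lower as deposited. Kit, the receptor, had 22.4, 20.9 and 26.5 FPKM in the knockout and 3.20, 5.61 and 4.94 FPKM in the controls, a log2 fold change of 2.25 ± 0.19. The adaptor Grb2 was higher by 2.22 ± 0.18, and Cbl, a ubiquitin ligase that acts on KIT, fell by 1.19 as deposited. On rescaled FPKM Cbl was at -0.040 with an adjusted p of 0.69 by limma. It stayed lower under quantile normalization (-0.41, adjusted p 0.0032) and on rescaled reads (-0.30, adjusted p 0.014). The ratio of Kitl to Kit was 0.536, 0.345 and 0.253 in the knockout and 0.453, 0.379 and 0.590 in the controls and did not separate the groups. Of 9 tested iron and transferrin genes 8 were called higher and 0 lower. The transferrin receptor Tfrc had 32.2, 39.4 and 35.1 FPKM in the knockout and 5.61, 8.75 and 8.25 FPKM in the controls, while Trf itself was near its floor. Ferritin light chain Ftl1 was higher by 2.23 ± 0.19 and Aco1, an iron-sensing regulator of these messages, by 1.82 ± 0.16. In the list made for clusterin 3 of 5 were higher and 1 lower (4 and 1 on rescaled FPKM), with the clearance receptor Lrp1 at 1.40 ± 0.28. The 1 lower was Sgms2 (-3.70 ± 0.18), a sphingomyelin synthase and not a clusterin receptor or chaperone. No tested clusterin receptor was called lower. For sex steroid action 1 of 4 was higher and 2 lower (2 and 1 on rescaled FPKM), Fshr at 1.83 ± 0.25 against Cyp19a1 at -2.36 ± 0.18. Cyp19a1 averaged 0.036 FPKM in the knockout and Fshr 0.835 FPKM in the controls, so each passed the filter through 1 group alone.

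The relatives of the small secreted proteins went both ways. Among 5 tested type 2 cystatins 2 were higher and 3 lower. Over all genes tested, 36.2% were called higher and 50.4% lower. Of the 3 lower cystatins, Cst13 averaged 0.021 FPKM and Cstl1 0 FPKM in the knockout. Both passed the filter through the controls alone, so they could only come out lower. Cst9 (110.2, 141 and 125 FPKM in the knockout and 51.3, 41.3 and 62.0 FPKM in the controls) and Cst3 (log2 fold change 1.07 ± 0.19) were higher. Cst8 had 1.46, 0.753 and 0.849 FPKM in the knockout and 215, 171 and 168 FPKM in the controls. Cstl1 was listed at 0 in every knockout library and had 71.2, 62.9 and 69.7 FPKM in the controls. Of 6 tested beta-defensins 1 was higher and 4 lower. The 4 lower beta-defensins averaged 0.036 FPKM or less in the knockout. They likewise passed the filter through the controls alone and could only come out lower. Defb36 had 94.9, 72.5 and 63.0 FPKM in the knockout and 23.6, 35.6 and 54.1 FPKM in the controls. Defb33 was listed at 0 in the knockout and had 95.6, 58.0 and 55.3 FPKM in the controls. Of 28 beta-defensins in the list, 9 were at 0 in every library. The other niche and secreted factors had 10 of 15 higher and 3 lower (12 and 1 on rescaled FPKM), with Igfbp2 at 2.54 ± 0.22, Pdgfb at 1.81 ± 0.18 and the Notch ligand Jag1 at -1.12 ± 0.12. The call of Jag1 ends on rescaled FPKM, at -0.067 with an adjusted p of 0.64 by limma. It holds under quantile normalization (-0.45, adjusted p 0.0067) and on rescaled reads (-0.30, adjusted p 0.039).

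**Figure D4:**
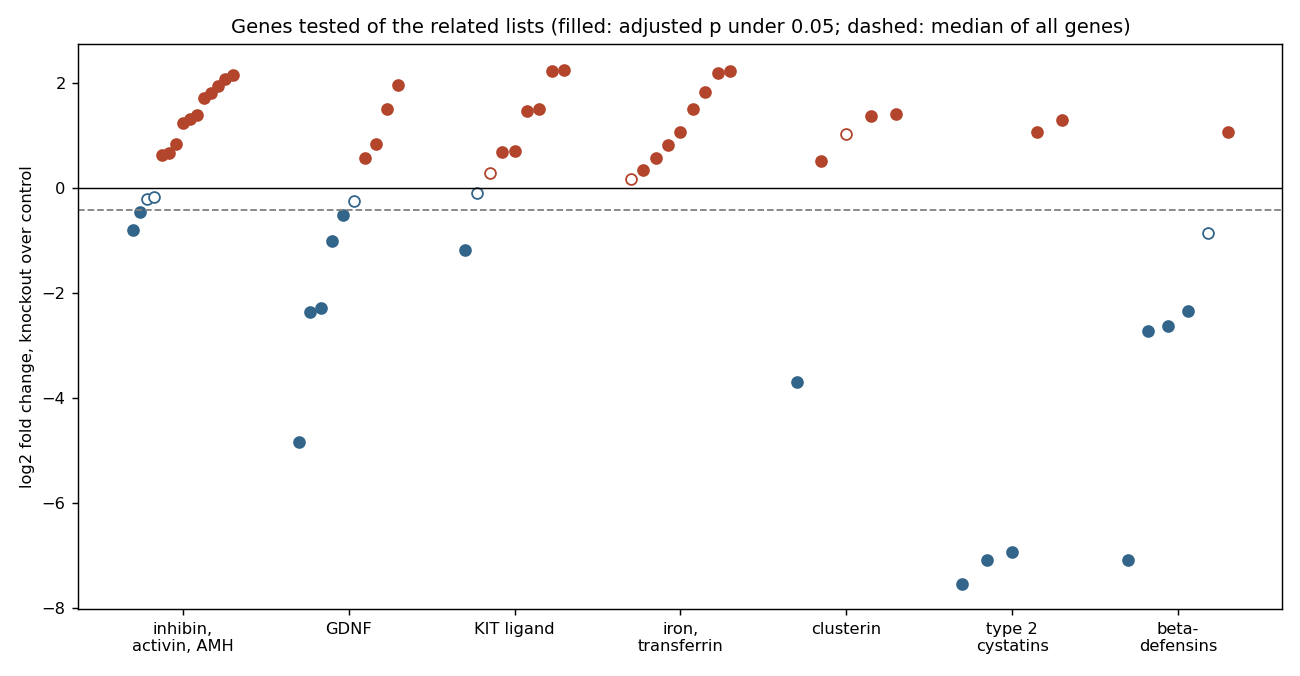
Log2 fold changes, knockout over control, of the tested genes of 7 related lists (points; filled where the adjusted p was under 0.05), with 0 as a solid line and the median of all genes as a dashed line. Iron genes lie above 0, and cystatins and beta-defensins span both sides, where points near -7 are of genes at or near 0 in the knockout and depend on the pseudocount of 0.5.

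Markers of other cells of the testis were set beside the members. Calls are as deposited unless stated, where 36.2% of all genes tested were called higher and 50.4% lower. As a share of the summed FPKM of a library, the 10 members took 0.565%, 0.377% and 0.346% in the knockout and 0.043%, 0.0659% and 0.0817% in the controls. The 22 other Sertoli markers took 0.404%, 0.309% and 0.279% in the knockout and 0.0374%, 0.0557% and 0.0612% in the controls, and 19 of 20 tested were called higher, with Aldh1a1 the exception, which was called higher under the 3 other scalings. The 10 Leydig markers took 0.0365%, 0.0199% and 0.00976% in the knockout and 0.019%, 0.0361% and 0.0216% in the controls, and 1 of 8 tested was higher and 5 lower (1 and 1 on rescaled FPKM), with Cyp17a1 and Insl3 among the 5. The 1 higher was Star, at a log2 fold change of 0.67 ± 0.17 (adjusted p 0.0058 by limma). It was also called higher under the 3 other scalings. The call of Insl3, at an adjusted p of 0.040 by limma as deposited, ends on rescaled FPKM (0.33), under quantile normalization (0.32) and on rescaled reads (0.22). The 10 peritubular myoid markers took 0.032% to 0.0379% in the knockout and 0.0431% to 0.0527% in the controls, a sum that is led in the controls by Actg2, and 1 of 9 tested was higher and 1 lower (7 and 1 on rescaled FPKM). Actg2 averaged 168.8 FPKM of a summed 219.3 FPKM in the controls and 1.18 of 70.2 FPKM in the knockout. The lower myoid share thus rests on that gene. Macrophage markers took 0.159%, 0.048% and 0.062% in the knockout and 0.0126%, 0.024% and 0.0173% in the controls, with 4 of 10 higher and 0 lower (10 and 0 on rescaled FPKM), and their highest value was in knockout 1, as was that of the members. Endothelial markers took 0.0019% to 0.00241% in the knockout and 0.000812% to 0.00111% in the controls. None of the Sertoli, Leydig, myoid, macrophage or endothelial markers was at 0 in every library. Spermatid markers took 0.000789% to 0.00275% in the knockout and 3.91% to 4.33% in the controls, and 8 of 8 were lower. All 8 averaged under 1 FPKM in the knockout and passed the filter through the controls alone. The 8 germ cell markers took 0.557% to 0.636% in the knockout and 0.339% to 0.354% in the controls, with 6 higher and 2 lower, Mael and Ddx4. The call of Ddx4 ends under quantile normalization (-0.11, adjusted p 0.17 by limma). In deposited FPKM the sum of the germ cell markers goes the other way, at 1228 ± 102 in the knockout and 1634 ± 93.0 in the controls (SD, n = 3 each). The macrophage and endothelial sums overlap between the groups in deposited FPKM. The shares of all 19 lists except the Leydig and erythroid ones had an exact permutation p of 0.10, the smallest possible, and 0.112 when adjusted over the lists, so this p does not set the members apart. The part that a changed mix of cells plays in the values of the members was not tested.

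**Figure D5:**
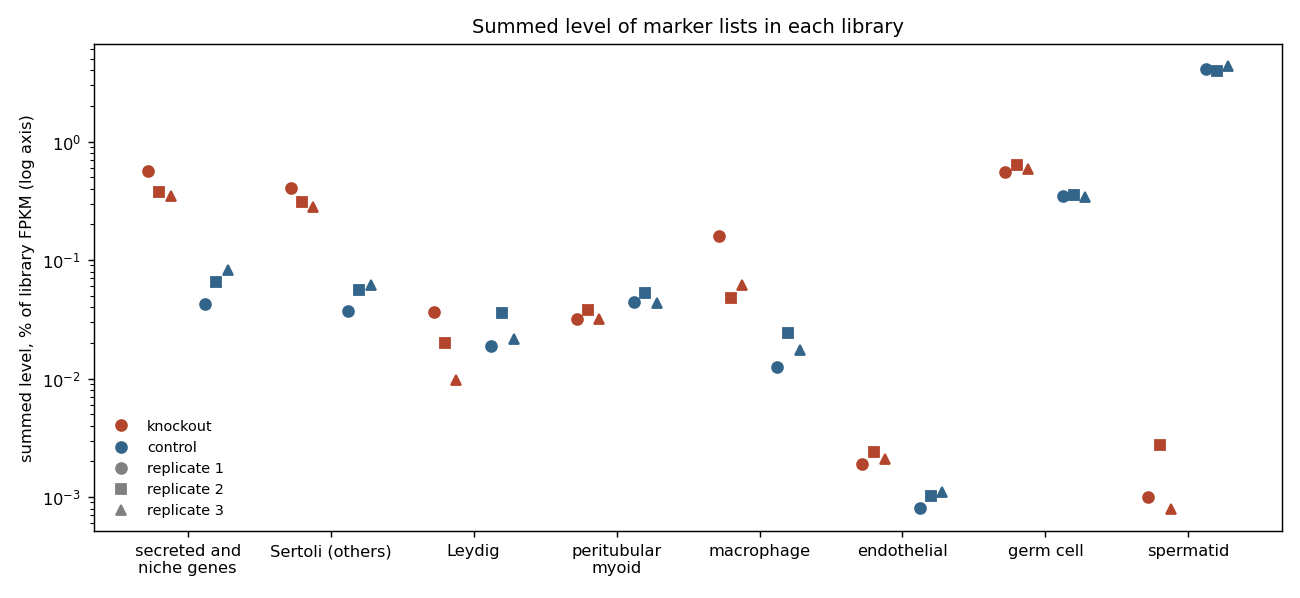
Summed level of 8 marker lists in each library as a percent of the library's summed FPKM, on a log axis, with knockout points left of control points in each list. The secreted and niche genes and the other Sertoli markers are higher in all 3 knockout libraries, the Leydig groups overlap, and spermatid markers lie at 0.00275% or below in the knockout and at 3.91% or above in the controls.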

How the data were processed

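The 6 libraries were 3 of the knockout and 3 of the control. Per the submitters' processing notes, HISAT2 2.0.5 and the mm10 build were used. How reads were counted, on which annotation and with what use of strand, is not given in the sources used here. The labels' extraction protocol mentions retinas while all other labels name testis. The authors deposited FPKM values for 54532 genes; multiplied by gene length they were whole multiples of 1 read for 100% of nonzero values within 0.01 read, and reads were recovered from them. Groups and replicate numbers come from the titles.

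Values of log2(FPKM + 0.5) of the 16791 genes averaging 1 FPKM or more were fitted, knockout minus control, by limma 3.58.1 (R 4.3.3) with a mean-variance trend and Benjamini-Hochberg adjustment at 0.05. A second fit centred each library on 20 Sertoli markers. Single values used exact two-sided permutation tests in scipy 1.17.1. The fits were tested on simulated data. The members and the gene lists were chosen with earlier results of these data known. Named genes are the members, up to 3 genes of smallest p per list (others named in the text were chosen after their values were seen), the genes overlapping a member and the 5 nearest profiles, of which 1 is not reported here. Alternatives were pseudocounts of 0.1 and 1, filters, scalings, no trend, weights, a replicate block, leaving out each library and, added after seeing the data, leaving out knockout 1 and control 1 together. Same-numbered libraries deviated with correlations of -0.122, -0.0530 and -0.0400, which show no pairing by number. With 3 libraries a group they cannot exclude one, and the labels state none. Sequences are from RefSeq (GRCm38.p6).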

Additional observations from a re-analysis of the deposited data

How the results depend on the processing

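The 8 tested members were called higher under every alternative that gave a value (17 or 18 each; Amh has none with a filter at 5 FPKM), with log2 fold changes between 0.88 and 3.86. Over all genes, 6075 were higher and 8462 lower, and 3227 and 5320 with the filter at 5 FPKM, which tests fewer genes. Relative to the Sertoli markers, members called higher ranged from 0 to 1 when each library was left out (0 without control replicate 2) and numbered 2, Inha and Shbg, without knockout 1 and control 1; with no filter 2 were called lower, Trf and Gdnf, where the pseudocount dominates. With the replicate number as a block, the count relative to the markers was 0. The block changed no other call of a member, and whether the numbers pair the libraries is not known. As a percent of recovered reads in place of FPKM, the log2 ratio of the summed lists, knockout over control, was 0.18 for GDNF (main value 0.80), 1.34 for KIT ligand (1.99), 0.18 for cystatins (0.27), -0.15 for myoid (-0.46), 0.48 for endothelial (1.12) and -0.13, reversed, for erythroid markers (0.37); the causes were not tested. Leaving out each library, the Leydig sum (main value -0.21) ranged from -0.79 to 0.14, turning to 0.14 without knockout replicate 3 and to 0.12 without control replicate 2, and the erythroid sum ranged from -0.0020 to 0.71. Array weights were not given for the fit relative to markers, where they did not converge. Depth limits Trf, Gdnf and the control level of Amh.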
